A study of Homo sapiens with 16 samples.

Results

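The 10 genes described here encode receptors and ligands of the epidermal growth factor (EGF) receptor family and one inhibitor of those receptors. They were chosen by gene symbol, with the symbols taken from GENCODE 29 for the gene IDs of the deposited count tables: the receptors EGFR, ERBB2 and ERBB3, the ligands AREG, EREG, HBEGF, TGFA, BTC and NRG1, and the inhibitor ERRFI1. All 10 were found among the 58735 genes of the tables. All 10 had enough counts to be tested in MDA-MB-231, and 9 did in SUM159PT, where BTC was below the filter on low counts. MDA-MB-231 and SUM159PT are established human lines of triple-negative breast cancer, which has neither hormone receptors nor amplified ERBB2. Each line was transfected with an siRNA against the Src-family tyrosine kinase YES1 (siYES1) or with one against firefly luciferase, a sequence these cells do not have (siNS), using Lipofectamine2000, and is labelled as 48 h. The labels give genotype WT for all 4 groups, and every group had 4 libraries, 16 in all. The design text calls the libraries technical replicates, so p-values measure only the spread between these samples. In the count table of SUM159PT the column names begin with S149, which does not abbreviate that name, so the identity of the line rests on its titles and labels.

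Ligands of this family are made as membrane proteins and are cut loose by metalloproteases, after which they bind a receptor on the same cell or a neighbour. EGFR binds AREG, EREG, HBEGF, TGFA and BTC, ERBB3 binds the neuregulins, and ERBB2 has no known ligand and works as the partner of the other receptors. Paired receptors phosphorylate each other and signal through RAS and ERK and through PI3K and AKT. ERRFI1 (also called MIG6) binds the kinase domain of these receptors and blocks it, and its gene is induced by the signal it restrains. High EGFR is common in triple-negative breast cancer, and Src-family kinases are known to act with EGFR.

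Library totals ran from 15680459 to 23451253 counts, and no pair of libraries agreed within sampling noise. On the second principal component of SUM159PT, the score of siNS replicate 1 was 40.3 while the remaining siNS libraries scored between -28.0 and -10.1. Most results that rest on the siNS libraries of this line are therefore also given without siNS replicate 1. YES1 itself was at 12.5 to 14.3 CPM (counts scaled to a common library size by the TMM method) in siYES1 libraries of MDA-MB-231, against 56.4 to 70.6 CPM in siNS libraries. In SUM159PT it was at 17.1 to 21.2 CPM in siYES1 libraries, against 109 to 165 CPM in siNS libraries. The estrogen and progesterone receptor genes ESR1 and PGR stayed at or below 1.46 CPM in every library, and the T-cell marker CD3E at or below 0.06 CPM. Other markers listed as low were higher. GATA3 was at 17.5 to 30.4 CPM in MDA-MB-231 and 10.7 to 20.2 CPM in SUM159PT. FOXA1 was at 3.79 to 11.2 CPM in SUM159PT and at most 0.13 CPM in MDA-MB-231. PECAM1, a marker of other cells, reached 9.03 CPM in MDA-MB-231 and 3.25 CPM in SUM159PT. The epithelial keratin KRT8 was at 188 to 382 CPM in SUM159PT and 719.7 to 1131 CPM in MDA-MB-231, while the epithelial cadherin CDH1 did not exceed 1.15 CPM in any library.

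In siNS libraries the EGFR levels of the lines overlapped, while each line had a different leading ligand. Values in this paragraph and the next are FPKM (CPM per kilobase of exon), which allow genes to be compared. In siNS libraries EGFR averaged 27.5 ± 4.82 FPKM in SUM159PT and 29.4 ± 3.88 FPKM in MDA-MB-231 (SD, n = 4 each), and the libraries overlapped. Epiregulin (EREG) was the most abundant ligand transcript of SUM159PT at 49.7 ± 2.59 FPKM, against 5.80 ± 0.46 FPKM in MDA-MB-231. In MDA-MB-231 the most abundant was amphiregulin (AREG), at 18.6 ± 4.70 FPKM in SUM159PT and 62.6 ± 2.12 FPKM in MDA-MB-231. Heparin-binding EGF (HBEGF) followed, at 15.2 ± 5.38 FPKM in SUM159PT and 51.5 ± 4.45 FPKM in MDA-MB-231. Transforming growth factor alpha (TGFA) was close to silent in SUM159PT, at 0.54 ± 0.19 FPKM, against 40.2 ± 3.34 FPKM in MDA-MB-231. The inhibitor ERRFI1 exceeded every receptor and ligand of the set in mean level, at 122 ± 30.1 FPKM in SUM159PT and 85.8 ± 4.47 FPKM in MDA-MB-231.

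Among the 6 ligands, the order in SUM159PT siNS libraries was EREG, AREG, HBEGF, NRG1, TGFA and BTC, where AREG (12.7 to 24.1 FPKM) and HBEGF (9.13 to 22.2 FPKM) overlapped and the other neighbours did not. In MDA-MB-231 siNS libraries it was AREG, HBEGF, TGFA, NRG1, EREG and BTC, with no overlap between neighbours. EREG made up 57.6% ± 5.26 of the summed ligand FPKM in SUM159PT and 3.44% ± 0.25 in MDA-MB-231, while TGFA made up 0.61% ± 0.16 in SUM159PT and 23.9% ± 1.82 in MDA-MB-231. Among the 3 receptors EGFR led in both lines, with 78.9% ± 4.87 of their summed FPKM in SUM159PT and 70.6% ± 2.52 in MDA-MB-231. Without SUM159PT siNS replicate 1, the shares in that line were 55.3% ± 3.18 for EREG, 0.65% ± 0.18 for TGFA and 81.3% ± 1.28 for EGFR (SD, n = 3). ERBB3 was the lowest, at 0.25 ± 0.11 FPKM in SUM159PT and 0.79 ± 0.07 FPKM in MDA-MB-231. The exon length counts every annotated transcript, so a gene with long alternative exons has a lower FPKM than its main transcript would give.

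**Figure D1:**
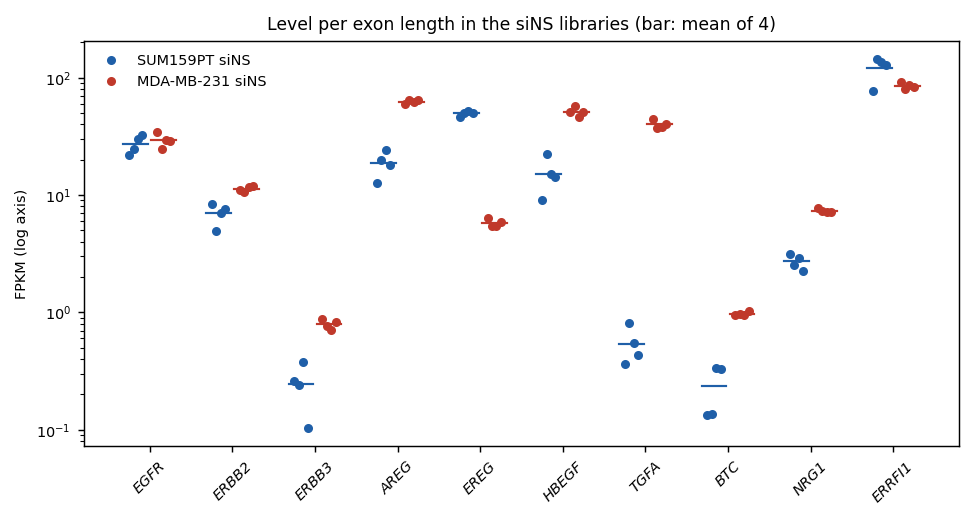
FPKM on a log axis of the 10 genes in the siNS libraries of SUM159PT (blue) and MDA-MB-231 (red), 1 point per library, bars at the mean of 4. EREG lies higher in SUM159PT, EGFR overlaps, and TGFA is apart by the most, at 0.54 FPKM in SUM159PT and 40.2 FPKM in MDA-MB-231.

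In the test of siNS SUM159PT against siNS MDA-MB-231, 9 of the 10 genes differed (edgeR quasi-likelihood test, Benjamini-Hochberg adjusted p under 0.05), 2 higher and 7 lower in SUM159PT. Of all 15411 genes tested, 73.8% differed, 36.3% higher and 37.6% lower. The libraries of 1 of the 10 were higher without overlap, against 33.3% of all genes, and those of 7 were lower without overlap, against 34.6%. The log2 fold change of TGFA was -6.22 ± 0.20 (SE, as for every log2 fold change; adjusted p = 9.64e-13 by edgeR) and that of EREG was 3.10 ± 0.11 (adjusted p = 2.53e-12 by edgeR). AREG (-1.75), HBEGF (-1.76), NRG1 (-1.43), BTC (-2.01), ERBB3 (-1.67) and ERBB2 (-0.70) were lower in SUM159PT, and ERRFI1 was higher by 0.51 log2 units. EGFR had a log2 fold change of -0.097 ± 0.13 (adjusted p = 0.519 by edgeR), which turned to 0.029 without SUM159PT siNS replicate 1. Without that library the other 9 genes kept their direction and stayed called: ERRFI1 was at 0.71, EREG at 3.17, TGFA at -6.04, BTC at -1.78, ERBB3 at -1.65, AREG at -1.56, HBEGF at -1.54, NRG1 at -1.47 and ERBB2 at -0.76. Each line has its own count table, so a difference between lines and one between count tables cannot be told apart here. In bulk RNA, fewer cells with a transcript and less of it per cell cannot be told apart.

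Among the receptors, EGFR moved in opposite directions in the 2 lines after YES1 knockdown. EGFR (ENSG00000146648, protein-coding) lies on the plus strand of chromosome 7 (GRCh38, chr7:55019021-55211628). In MDA-MB-231 it stood at 278, 272, 238 and 228 CPM in siYES1 replicates 1 to 4, against 431, 312, 368 and 362 CPM in siNS replicates 1 to 4. Every siYES1 library was below every siNS library. The log2 fold change was -0.53 ± 0.094 (adjusted p = 0.000164 by edgeR), with means of 254 ± 24.6 CPM in siYES1 and 368 ± 48.6 CPM in siNS. In SUM159PT EGFR stood at 497, 469, 465 and 520 CPM in siYES1 libraries, against 277, 312, 379 and 409 CPM in siNS libraries. Here every siYES1 library was above every siNS library, and the log2 fold change was 0.50 ± 0.11 (adjusted p = 0.00274 by edgeR). Without SUM159PT siNS replicate 1 it was 0.40 (adjusted p = 0.000166 by edgeR). Over the 4 groups the order of EGFR was siYES1 SUM159PT, siNS MDA-MB-231, siNS SUM159PT and siYES1 MDA-MB-231, and siNS SUM159PT overlapped both siNS MDA-MB-231 and, by 1 library, siYES1 MDA-MB-231.

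ERBB3, the neuregulin receptor with weak kinase activity of its own, fell in both lines from a low level. It lies on chromosome 12 (chr12:56076799-56103505, plus strand). In MDA-MB-231 it stood at 3.77, 4.205, 4.82 and 3.75 CPM in siYES1 libraries, against 7.88, 6.99, 6.39 and 7.43 CPM in siNS libraries. The groups did not overlap, and the log2 fold change was -0.80 ± 0.14 (adjusted p = 0.000185 by edgeR). In SUM159PT it stood at 0.47, 0.89, 0.58 and 1.09 CPM in siYES1 libraries (8 to 22 counts), against 2.38, 2.20, 3.45 and 0.94 CPM in siNS libraries (16 to 69 counts). The library of siNS replicate 4 lay within the siYES1 range. The log2 fold change was -1.56 ± 0.47 (adjusted p = 0.0203 by edgeR), and -1.54 without siNS replicate 1 (adjusted p = 0.0241 by edgeR). That call ended without siNS replicate 3 (adjusted p = 0.0858), without siYES1 replicate 1 (0.0613) or 3 (0.0532), and with replicate number as a block (0.0663).

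ERBB2, the partner receptor, was not called in either line. In MDA-MB-231 it averaged 108 ± 4.85 CPM in siYES1 and 117 ± 6.41 CPM in siNS, with a log2 fold change of -0.12 ± 0.071 (adjusted p = 0.181 by edgeR). In SUM159PT it averaged 69.9 ± 4.82 CPM in siYES1 and 72.4 ± 15.2 CPM in siNS, with a log2 fold change of -0.051 ± 0.13 (adjusted p = 0.798 by edgeR) that turned to 0.040 without siNS replicate 1. Its gene (chr17:39687914-39730426, plus strand) shares 571 exon bases with MIEN1 and 194 with PGAP3 on the other strand. MIEN1 fell in MDA-MB-231 (log2 fold change -0.40, adjusted p = 0.00542 by edgeR) and rose in SUM159PT (0.43, adjusted p = 0.0298 by edgeR). PGAP3 fell in MDA-MB-231 (-0.40, adjusted p = 0.00952 by edgeR) and was not called in SUM159PT (0.43, adjusted p = 0.206 by edgeR). Both are given with all siNS libraries only. No strand setting of the counting was stated in the labels, and the part of such reads in the ERBB2 value was not tested.

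**Figure D2:**
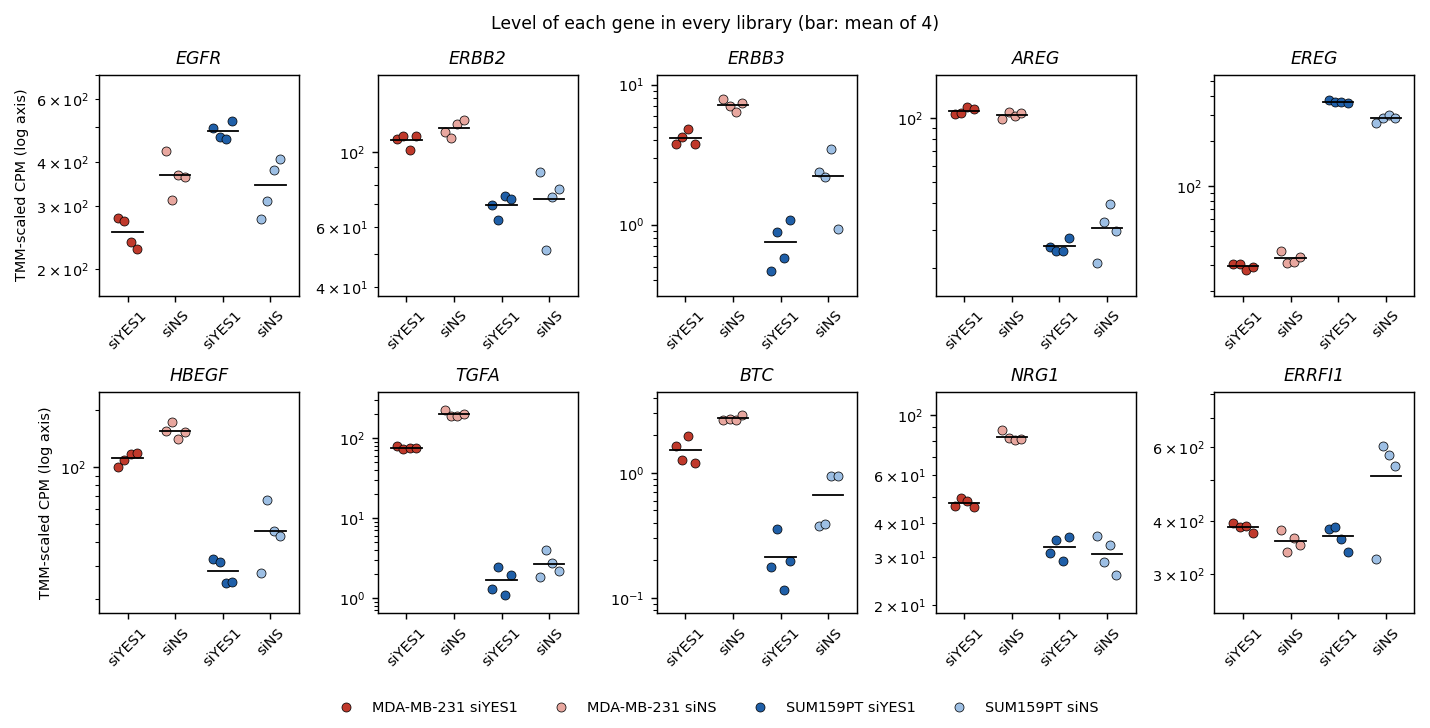
TMM-scaled CPM on a log axis of the 10 genes in all 16 libraries, 1 point per library and bars at the mean of 4, with siYES1 left of siNS in each line. EGFR is lower with siYES1 in MDA-MB-231 and higher in SUM159PT, and TGFA, NRG1, HBEGF, ERBB3 and BTC are lower with siYES1 in MDA-MB-231 without overlap.

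AREG, EREG and BTC are neighbours on chromosome 4, and were called differently: EREG rose in SUM159PT, BTC fell in MDA-MB-231 and AREG was not called in either line. EREG (chr4:74365143-74388751) and AREG (chr4:74445134-74455009) lie on the plus strand and BTC (chr4:74744759-74794686) on the minus strand. The promoters of the neighbours EREG and AREG are shown beside those of EGFR, which moved like EREG in SUM159PT, and HBEGF, which moved the other way. Of the 10 genes, 8 had an entry in the RefSeq promoter table (GRCh38.p14). EGFR had 2 entries, and only the one farthest upstream was searched for the motifs and is shown. Each line gives the 250 bases before the annotated start, 5′ to 3′ on the strand of the gene, with matches to 5 short motifs in capitals, those named for AP-1, CRE, the TATA box, the GC box and TEAD, each searched on both strands.
EGFR, chr7:55018767-55019016, plus strand: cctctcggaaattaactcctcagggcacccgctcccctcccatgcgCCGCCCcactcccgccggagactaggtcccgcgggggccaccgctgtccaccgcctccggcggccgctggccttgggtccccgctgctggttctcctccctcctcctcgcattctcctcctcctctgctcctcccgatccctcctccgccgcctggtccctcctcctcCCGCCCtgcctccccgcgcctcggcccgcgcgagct
EREG, chr4:74364895-74365144, plus strand: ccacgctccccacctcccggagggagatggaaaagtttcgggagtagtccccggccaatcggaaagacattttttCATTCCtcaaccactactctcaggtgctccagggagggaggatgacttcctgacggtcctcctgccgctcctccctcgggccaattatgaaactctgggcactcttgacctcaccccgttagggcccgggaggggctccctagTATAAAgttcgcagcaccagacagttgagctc
AREG, chr4:74444886-74445135, plus strand: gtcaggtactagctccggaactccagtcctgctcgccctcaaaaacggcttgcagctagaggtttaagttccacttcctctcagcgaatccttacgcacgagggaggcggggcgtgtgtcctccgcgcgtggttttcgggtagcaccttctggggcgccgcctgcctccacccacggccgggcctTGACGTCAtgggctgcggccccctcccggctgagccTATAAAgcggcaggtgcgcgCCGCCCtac
HBEGF, chr5:140346604-140346853, minus strand: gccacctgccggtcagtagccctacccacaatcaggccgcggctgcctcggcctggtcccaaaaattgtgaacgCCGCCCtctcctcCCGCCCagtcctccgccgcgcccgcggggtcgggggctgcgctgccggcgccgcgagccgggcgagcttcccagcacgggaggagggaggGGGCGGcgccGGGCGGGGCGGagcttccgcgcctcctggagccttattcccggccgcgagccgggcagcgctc

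EREG and AREG each held the TATA box letters TATAAA, with its first base 32 bases before the start in EREG and 29 bases before it in AREG, and the windows of EGFR and HBEGF did not. Of the 35116 promoter windows in the table, 10.7% held it. AREG alone of these 4 held the CRE letters TGACGTCA, found in 1.65% of all windows, and EREG alone held the TEAD letters GGAATG, found in 11.9%. The GC box letters GGGCGG occurred 5 times in HBEGF, with 2 of these sharing a base, 2 times in EGFR, 1 time in AREG and not in EREG, and in 42.6% of all windows. The AP-1 letters TGANTCA, found in 6.57% of all windows, were in none of the 4. HBEGF had 76.4% G and C in this window, EGFR 73.6%, AREG 65.2% and EREG 58%. A match describes the letters of the window and is not evidence of a bound factor.

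TGFA, a ligand of EGFR, had the largest log2 fold change of the 10 genes in MDA-MB-231 and fell there. It lies on chromosome 2 (chr2:70447280-70554193, minus strand). It stood at 78.9, 72.4, 74.3 and 75.0 CPM in siYES1 libraries, against 222, 186, 188 and 202 CPM in siNS libraries. The groups lay far apart, with a log2 fold change of -1.41 ± 0.076 (adjusted p = 4.67e-10 by edgeR), and 3.43% of the genes tested had a lower one. In SUM159PT TGFA had 19 to 41 counts in siYES1 libraries, or 1.69 ± 0.61 CPM, and 29 to 62 counts in siNS libraries, or 2.68 ± 0.96 CPM. The libraries overlapped and TGFA was not called (log2 fold change -0.67 ± 0.37, adjusted p = 0.183 by edgeR), although a joint fit of all 16 libraries called it (-0.62, adjusted p = 0.0372). Without siNS replicate 1 it was -0.82 (adjusted p = 0.0954 by edgeR).

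HBEGF, whose product binds EGFR and ERBB4, fell in both lines. Its gene lies on chromosome 5 (chr5:140332843-140346631, minus strand). In MDA-MB-231 it stood at 100.2, 109, 118 and 119 CPM in siYES1 libraries, against 155, 173, 141 and 153 CPM in siNS libraries. The groups did not overlap, and the log2 fold change was -0.48 ± 0.081 (adjusted p = 0.000101 by edgeR). In SUM159PT it stood at 32.8, 31.3, 24.3 and 24.7 CPM in siYES1 libraries, against 27.6, 67.1, 46.0 and 43.1 CPM in siNS libraries. The low siNS library, replicate 1, lay within the siYES1 range, and the log2 fold change was -0.70 ± 0.21 (adjusted p = 0.0198 by edgeR). Without that library it was -0.89 (adjusted p = 3.66e-05 by edgeR). The call ended without siNS replicate 2, at -0.46 (adjusted p = 0.0577), and without siYES1 replicate 3 (0.0642) or 4 (0.0648).

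NRG1, the neuregulin of chromosome 8 that binds ERBB3 and ERBB4, fell in MDA-MB-231. It stood at 46.4, 49.3, 48.2 and 45.7 CPM in siYES1 libraries, against 87.9, 82.3, 81.0 and 81.7 CPM in siNS libraries. No libraries overlapped, and the log2 fold change was -0.81 ± 0.072 (adjusted p = 1.05e-07 by edgeR). In SUM159PT the groups overlapped, at 32.7 ± 3.08 CPM in siYES1 and 30.9 ± 4.46 CPM in siNS. The log2 fold change of 0.081 ± 0.12 was not called (adjusted p = 0.647 by edgeR) and turned to -0.093 with total counts as the scaling; without siNS replicate 1 it was 0.15 (adjusted p = 0.313 by edgeR). Betacellulin (BTC), which binds EGFR and ERBB4, fell in MDA-MB-231 at a low level, with 19 to 32 counts in siYES1 libraries and 47 to 59 counts in siNS libraries (log2 fold change -0.84 ± 0.21, adjusted p = 0.00312 by edgeR). In SUM159PT it had 2 to 6 counts per siYES1 library and 6 to 19 per siNS library and was not tested; with no filter on low counts its log2 fold change was -1.61 ± 0.95 (adjusted p = 0.245 by edgeR).

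EREG rose in SUM159PT, the line where it was the leading ligand. It stood at 375, 362, 365 and 359 CPM in siYES1 libraries, against 264, 286, 300.0 and 287 CPM in siNS libraries. The groups did not overlap, and the log2 fold change was 0.36 ± 0.066 (adjusted p = 0.000848 by edgeR), or 0.32 without siNS replicate 1 (adjusted p = 5.18e-05 by edgeR). In MDA-MB-231 EREG stood at 30.02, 30.2, 27.6 and 28.99 CPM in siYES1 libraries, against 36.7, 30.9, 31.3 and 33.6 CPM in siNS libraries. These groups did not overlap either, but the log2 fold change of -0.18 ± 0.085 was not called (adjusted p = 0.0813 by edgeR). It was called with total counts as the scaling (-0.23, adjusted p = 0.0374), in the joint fit (-0.24, adjusted p = 0.0173) and without siNS replicate 2 (-0.22, adjusted p = 0.0489).

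AREG was not called in either line. In MDA-MB-231, where it was the leading ligand, it averaged 108 ± 3.69 CPM in siYES1 and 103 ± 3.50 CPM in siNS (log2 fold change 0.072 ± 0.068, adjusted p = 0.398 by edgeR). In SUM159PT it stood at 25.0, 24.0, 24.0 and 27.5 CPM in siYES1 libraries, against 20.9, 32.6, 39.7 and 29.7 CPM in siNS libraries. The lowest value of the line was that of siNS replicate 1, and the other 3 siNS libraries were above every siYES1 library. The log2 fold change was -0.29 ± 0.16 (adjusted p = 0.18 by edgeR), and it passed the threshold once siNS replicate 1 was left out (-0.45, adjusted p = 0.00356) or total counts set the scale (-0.46, adjusted p = 0.0334).

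With these changes, the summed FPKM of the 6 ligands in MDA-MB-231 was 128 ± 4.52 in siYES1 and 168 ± 5.82 in siNS. AREG took 51.5% ± 0.41 of it in siYES1 and 37.2% ± 1.57 in siNS, and TGFA took 11.9% ± 0.73 in siYES1 and 23.9% ± 1.82 in siNS. In SUM159PT the sum was 91.8 ± 2.26 FPKM in siYES1 and 87.1 ± 11.3 FPKM in siNS, which overlapped. EREG took 69.6% ± 1.26 of it in siYES1 and 57.6% ± 5.26 in siNS, and HBEGF 10.2% ± 1.38 in siYES1 and 17.2% ± 4.43 in siNS. Without siNS replicate 1 the siNS libraries had a sum of 92.2 ± 5.77 FPKM, with 55.3% ± 3.18 from EREG and 18.6% ± 4.04 from HBEGF (SD, n = 3). These sums and shares are descriptions of messenger RNA and carry no test.

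**Figure D3:**
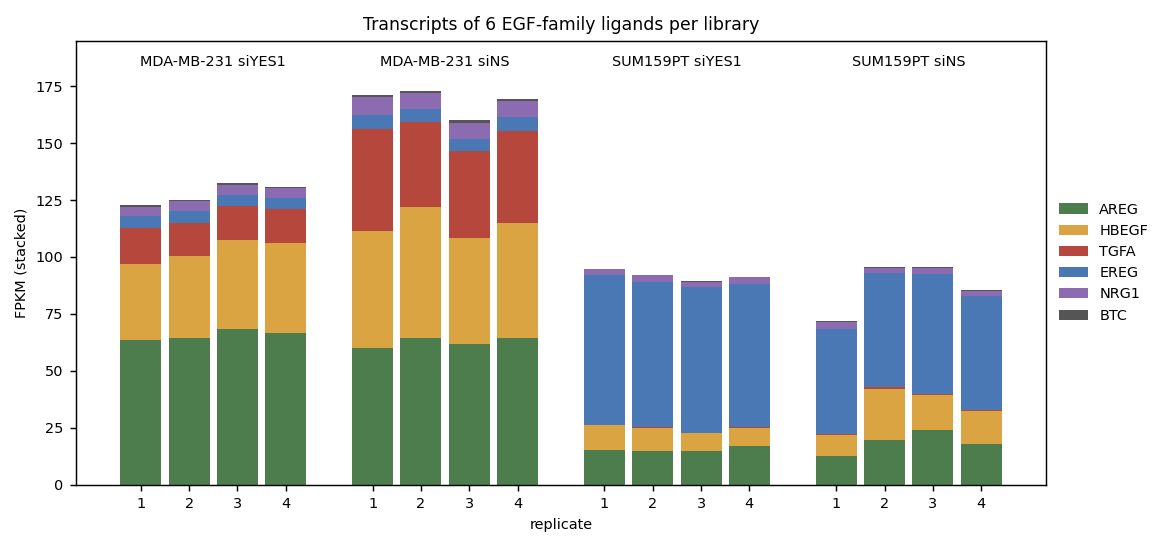
Stacked FPKM of the 6 ligands in each library, with siYES1 left of siNS in each line and replicates 1 to 4 in order. AREG, HBEGF and TGFA fill most of the bars of MDA-MB-231, where the TGFA part is smaller with siYES1, and EREG fills most of the bars of SUM159PT.

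ERRFI1, the receptor inhibitor, fell in SUM159PT. It lies on chromosome 1 (chr1:8004404-8026308, minus strand). It stood at 384, 388, 364 and 339 CPM in siYES1 libraries, against 326, 603, 575 and 539.8 CPM in siNS libraries. The library of siNS replicate 1 lay below every siYES1 library and the other 3 siNS libraries lay above them. The log2 fold change was -0.47 ± 0.15 (adjusted p = 0.0249 by edgeR), and -0.64 ± 0.059 without siNS replicate 1 (adjusted p = 4.04e-08 by edgeR). Leaving out any other siNS library, or siYES1 replicate 1, 3 or 4, ended the call, with adjusted p between 0.051 and 0.0776. In MDA-MB-231 ERRFI1 averaged 388 ± 8.58 CPM in siYES1 and 359 ± 18.7 CPM in siNS, and was not called (log2 fold change 0.11 ± 0.066, adjusted p = 0.169 by edgeR). It was called there without siNS replicate 1 (0.15, adjusted p = 0.0404).

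Counted together, 0 of the 10 genes rose and 6 fell in MDA-MB-231 (edgeR), against 24.9% rising and 27.5% falling of 14319 genes tested, or 52.4% in either direction. The libraries of 7 of the 10 were lower in siYES1 without overlap, as were those of 24.7% of all genes tested, and 0 were higher without overlap, against 22.4%. At an unadjusted p under 0.05, 0 of them rose, and DESeq2 and limma-voom also called 0 higher. Their median log2 fold change was -0.51, against 0.0015 over all genes tested. In SUM159PT 2 of 9 rose and 3 fell, against 17.7% rising and 19% falling of 14469 genes tested, or 36.8% in either direction. Of the 9, EGFR and EREG were higher without overlap (18.2% of all genes tested) and 0 were lower without overlap (18.6%). The median was -0.29 against -0.029. Without siNS replicate 1, 2 of the 9 rose and 4 fell, AREG being the added one. AREG, HBEGF and ERRFI1 were then lower in siYES1 without overlap, and EGFR and EREG stayed higher without overlap. The matching shares of all genes without that library were not counted. No library enters both comparisons. Scaling by total counts moved the median of all genes in SUM159PT by -0.17 log2 units. On that scale EGFR was at 0.34 (adjusted p = 0.0171 by edgeR) and EREG at 0.19 (adjusted p = 0.0181 by edgeR), both still higher in siYES1.

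**Figure D4:**
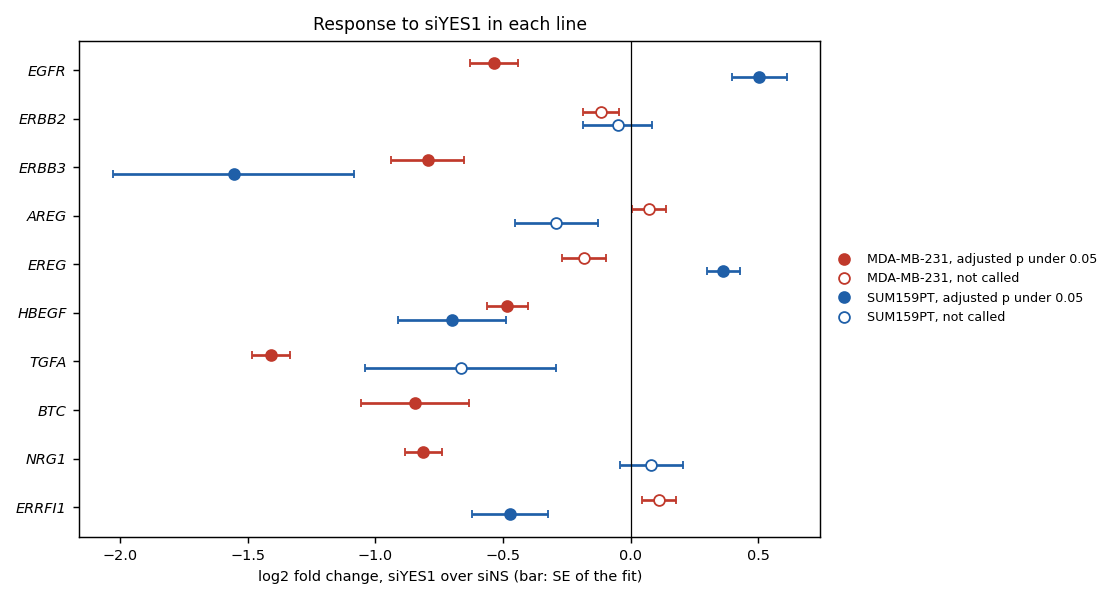
Log2 fold change of siYES1 over siNS in MDA-MB-231 (red) and SUM159PT (blue) with the SE of the edgeR fit, filled where the adjusted p over all genes was under 0.05. The EGFR points are at 0.50 in SUM159PT and -0.53 in MDA-MB-231. BTC has no point for SUM159PT because it was not tested there.

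The test of the difference between the lines, SUM159PT minus MDA-MB-231, called 5 of the 10 genes, 4 with a positive and 1 with a negative difference, against 24.3% of 16299 genes tested, 15.4% positive and 8.85% negative. YES1 itself had a log2 fold change of -2.96 ± 0.14 in SUM159PT and -2.20 ± 0.094 in MDA-MB-231. That difference was also called (-0.66 ± 0.17, adjusted p = 0.00657 by edgeR), so the lines are not compared at an equal change of YES1. Its part in the other differences was not tested. EGFR differed by 1.14 ± 0.16 log2 units (adjusted p = 1.5e-05 by edgeR), NRG1 by 0.99 ± 0.14 (adjusted p = 2.4e-05 by edgeR), EREG by 0.64 ± 0.10 (adjusted p = 0.000103 by edgeR) and TGFA by 0.85 ± 0.27 (adjusted p = 0.0251 by edgeR). Without SUM159PT siNS replicate 1 the differences of EGFR, NRG1 and EREG were 0.98, 1.00 and 0.55, all still called. ERRFI1 differed in the other direction, by -0.49 ± 0.17 (adjusted p = 0.0447 by edgeR). The TGFA call ended with limma-voom (adjusted p = 0.0738), with total counts as the scaling (0.0815) and without SUM159PT siNS replicate 1 (0.0646) or 4 (0.0569) or siYES1 replicate 2 (0.112) or 4 (0.0713). The ERRFI1 call ended in most fits that left out 1 library, with adjusted p up to 0.0938, and strengthened without SUM159PT siNS replicate 1 (-0.71, adjusted p = 2.92e-06). HBEGF (-0.12 ± 0.24, adjusted p = 0.769 by edgeR) and ERBB3 (-0.66 ± 0.43, adjusted p = 0.279 by edgeR) fell in both lines and were not called different. AREG (-0.27, adjusted p = 0.283 by edgeR) was called without SUM159PT siNS replicate 1 (-0.48, adjusted p = 0.00482) and with total counts as the scaling (-0.48, adjusted p = 0.0328).

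The rest of the family was expressed at low levels. ERBB4, EGF, EPGN, NRG2, NRG3 and NRG4 were listed for this purpose, and 2 of the 6 were tested in MDA-MB-231 and 3 in SUM159PT; the ones described were picked after their values were seen. NRG2, a neuregulin, fell in MDA-MB-231, with 1.39 ± 0.29 CPM in siYES1 and 5.85 ± 1.10 CPM in siNS (log2 fold change -2.06 ± 0.20, adjusted p = 3.55e-07 by edgeR). In SUM159PT it averaged 5.57 ± 1.35 CPM in siYES1 and 7.24 ± 1.56 CPM in siNS and was not called (adjusted p = 0.222 by edgeR), although it was called without siNS replicate 1 (-0.53, adjusted p = 0.047). The receptor ERBB4 had at most 2 counts in any MDA-MB-231 library. In SUM159PT it fell, with 1.08 ± 0.40 CPM in siYES1 and 2.78 ± 0.90 CPM in siNS (log2 fold change -1.36 ± 0.39, adjusted p = 0.0161 by edgeR), and by 1.52 without siNS replicate 1 (adjusted p = 0.00528 by edgeR).

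For the other genes of the pathway, counts are to be read against all genes tested, of which 24.9% rose and 27.5% fell in MDA-MB-231 and 17.7% rose and 19% fell in SUM159PT. Of 14 genes of ligand shedding, 2 rose and 5 fell in MDA-MB-231 (median log2 fold change -0.12), and 3 rose and 2 fell in SUM159PT (median -0.032). These were 50% of the list called, against 52.4% of all genes, in MDA-MB-231, and 35.7%, against 36.8%, in SUM159PT. The metalloprotease ADAM9 rose in both, by 0.30 ± 0.072 in MDA-MB-231 (adjusted p = 0.00211 by edgeR) and by 0.99 ± 0.067 in SUM159PT (adjusted p = 4.3e-07 by edgeR). FRMD8, which stabilises the complex of ADAM17 with its iRhom partner, rose by 0.82 ± 0.11 in MDA-MB-231 (adjusted p = 1.28e-05 by edgeR). ADAM8 fell there, with 274 ± 12.2 CPM in siYES1 and 498 ± 53.9 CPM in siNS (log2 fold change -0.87, adjusted p = 1.6e-07 by edgeR). Among 17 tested adaptors and PI3K subunits 2 rose and 7 fell in MDA-MB-231 (median -0.15) and 2 rose and 4 fell in SUM159PT (median 0.094), or 52.9% called, against 52.4% of all genes, in MDA-MB-231 and 35.3%, against 36.8%, in SUM159PT. GAB1, a docking protein, fell in both lines, by 0.76 log2 units in MDA-MB-231 (adjusted p = 0.000378 by edgeR) and by 0.65 in SUM159PT (adjusted p = 0.0128 by edgeR). SHC1, which links receptors to RAS, fell by 0.51 in SUM159PT (adjusted p = 7.5e-05 by edgeR).

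In the RAS-ERK and AKT core, MAPK3 and NRAS fell in both lines. Of 16 genes, 5 rose and 3 fell in MDA-MB-231 (median 0.11) and 6 rose and 2 fell in SUM159PT (median 0.16). In each line 50% of the list was called, against 52.4% of all genes in MDA-MB-231 and 36.8% in SUM159PT. AKT2, a kinase of the AKT branch, rose by 0.59 ± 0.097 in MDA-MB-231 (adjusted p = 7.38e-05 by edgeR) and by 0.39 ± 0.10 in SUM159PT (adjusted p = 0.0102 by edgeR). Its difference between the lines was not called (-0.11, adjusted p = 0.663 by edgeR). The ERK gene MAPK3 fell by 0.80 in MDA-MB-231 (adjusted p = 2.16e-06 by edgeR) and by 0.54 in SUM159PT (adjusted p = 0.00201 by edgeR). NRAS, a RAS protein, fell by 0.80 in MDA-MB-231 (adjusted p = 6.86e-07 by edgeR) and by 0.36 in SUM159PT (adjusted p = 0.00221 by edgeR).

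Among 30 genes of receptor ubiquitination, traffic and other inhibition, 6 rose and 8 fell in MDA-MB-231 (median -0.027), and 12 rose and 3 fell in SUM159PT (median 0.19). This was 46.7% of the list called, against 52.4% of all genes, in MDA-MB-231, and 50%, against 36.8%, in SUM159PT, where 17.7% of all genes rose. LRIG1, a membrane protein that promotes loss of ERBB receptors, fell in both lines. It averaged 19.2 ± 1.84 CPM in siYES1 and 84.1 ± 9.82 CPM in siNS of MDA-MB-231 (log2 fold change -2.13 ± 0.10, adjusted p = 1.06e-10 by edgeR). In SUM159PT it averaged 36.6 ± 4.36 CPM in siYES1 and 60.2 ± 11.5 CPM in siNS (log2 fold change -0.72 ± 0.14, adjusted p = 0.00149 by edgeR). STAM2, a part of the endosomal sorting machinery, rose by 1.02 in MDA-MB-231 (adjusted p = 1.37e-07 by edgeR) and by 1.00 in SUM159PT (adjusted p = 8.79e-06 by edgeR). CBLB, a ubiquitin ligase of active receptors, rose by 1.07 ± 0.16 in SUM159PT (adjusted p = 0.00023 by edgeR).

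Of 15 genes that ERK signalling induces, 5 rose and 5 fell in MDA-MB-231 (median -0.15), and 4 rose and 4 fell in SUM159PT (median 0.044). The share called was 66.7%, against 52.4% of all genes, in MDA-MB-231, and 53.3%, against 36.8%, in SUM159PT. In MDA-MB-231 the ERK inhibitor SPRY4 rose by 0.80 ± 0.084 (adjusted p = 7.11e-07 by edgeR), while cyclin D1 (CCND1) fell by 0.95 ± 0.064 (adjusted p = 4.44e-09 by edgeR). In SUM159PT the AP-1 subunit FOSL1 rose by 0.84 ± 0.071 (adjusted p = 2.19e-06 by edgeR). The early response factor EGR1 was at 7.58 ± 2.05 CPM in siYES1 and 38.1 ± 2.67 CPM in siNS there (log2 fold change -2.33 ± 0.17, adjusted p = 6.85e-07 by edgeR). The ERK phosphatase DUSP6 fell by 1.60 ± 0.27 there (adjusted p = 0.000562 by edgeR). CCND1 also fell in SUM159PT (log2 fold change -0.80, adjusted p = 1.85e-06 by edgeR). In MDA-MB-231 FOSL1 also rose (0.33, adjusted p = 0.000492 by edgeR) and DUSP6 also fell (-0.42, adjusted p = 0.000329 by edgeR). SPRY4 in SUM159PT (0.36, adjusted p = 0.0961 by edgeR) and EGR1 in MDA-MB-231 (-0.26, adjusted p = 0.0573 by edgeR) were not called. Unlike these, IER3 rose in SUM159PT (0.51, adjusted p = 0.00187 by edgeR) and fell in MDA-MB-231 (-0.38, adjusted p = 0.00184 by edgeR). With all libraries, the difference between the lines was called positive for 6 of the 15 and negative for 4. That was 66.7% of the list, against 24.3% of all genes. AKT2, CCND1 and SPRY4 in SUM159PT are given with all libraries only. Without SUM159PT siNS replicate 1, every other gene of these 5 pathway lists named here for that line kept its direction and its call. The number of the RAS-ERK and AKT core that fell was then 4.

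The genes whose 4 group means were most like those of EGFR were sought among 9458 coding genes at 5 CPM or more in both lines. By the root mean square difference of centred log2 CPM they were GPR157 (0.030), CDK17 (0.051) and CYLD (0.051), where the median gene was at 0.51. For HBEGF they were TMEM250, TRUB2 and CHMP6 (0.041, 0.041 and 0.043, median gene 1.00), and for ERRFI1 LYRM7 (0.019), C2orf68 (0.023) and SFI1 (0.030, median gene 0.45). With 4 group means, many genes lie close by this measure.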

How the data were processed

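RNA was sequenced from 16 libraries, 4 per siRNA in each line. The authors deposited 1 table of raw counts per gene for each line, and per the submitters' processing notes HISAT2 2.0.5, featureCounts 1.5.0-p3 and the hg38 build were used. No source used here gives the strand setting or the annotation. All 58735 gene IDs matched GENCODE 29, which gave symbols, coordinates and exon lengths. Counts were tested with edgeR 4.0.16 (R 4.3.3): filterByExpr, TMM scaling within each line and the quasi-likelihood test, siYES1 against siNS, with Benjamini-Hochberg adjustment over all genes tested and a threshold of 0.05. The difference between the lines was an interaction term over 16 libraries, and the lines were compared over the 8 siNS libraries, whose TMM factors also tie CPM across the lines. CPM divided by exon kilobases gives FPKM. The procedure was tested on simulated data. The members and the gene lists were chosen with earlier results of these data known. Each gene named from the 5 pathway lists was, in at least 1 line, among the 2 with the largest log2 fold change per direction. This ranking held only genes that were called and had a mean of 5 CPM or more. NRG2, ERBB4, MIEN1 and PGAP3 fall outside this rule and were chosen after their values were seen. Alternatives were other scalings (RLE, total counts), other filters, DESeq2 1.42.0, limma-voom (limma 3.58.1), a replicate block, a joint fit of all libraries and leaving out each library. Promoter sequences are from RefSeq (GRCh38.p14). Replicate numbers did not pair the samples, and totals of 15680459 to 23451253 counts set the precision. Some genes that the naming rule selects are not reported here.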

Additional observations from a re-analysis of the deposited data

Results flagged for a closer look

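The response to siYES1 differed between the lines, SUM159PT minus MDA-MB-231, for 5 of the 10 genes by the interaction term (edgeR, adjusted over all genes). Of all 16299 genes tested, 24.3% were called, 15.4% with a positive and 8.85% with a negative difference. EGFR differed by 1.14 log2 units, EREG by 0.64, TGFA by 0.85, NRG1 by 0.99 and ERRFI1 by -0.49. The values of each line stand in the text above. TMM factors set within each line, a choice made after seeing the data, gave 1.03 for EGFR, 0.54 for EREG, 0.75 for TGFA (adjusted p = 0.0495), 0.89 for NRG1 and -0.59 for ERRFI1 (adjusted p = 0.0176). The difference was called in every alternative run for EGFR, EREG and NRG1 and not in every one for TGFA and ERRFI1. No library of the 10 genes stood beyond Dixon's 95% value within its group of 4.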

How the results depend on the processing

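Under the alternatives run, the counts of genes called among the 10 moved as follows, given without the share of all genes called under each. A change in these counts cannot be told apart from a general gain or loss of calls. In SUM159PT the number that fell was 3 and became 5 in the joint fit, and ranged from 0 to 4 when 1 library was left out (0 without siYES1 replicate 3). In MDA-MB-231 the number that rose was 0 and ranged from 0 to 1 (1 without siNS replicate 1). The number called lower in the difference between the lines was 1, and became 2 with total counts as the scaling, 0 with limma-voom and 0 with the replicate block, and ranged from 0 to 2 when 1 library was left out. Directions turned for uncalled genes: NRG1 in SUM159PT was -0.093 and the ERBB2 difference -0.064 with total counts as the scaling. With 1 library left out, ERBB2 in SUM159PT ranged from -0.18 to 0.040 (without siNS replicate 1) and EGFR between siNS libraries from -0.19 to 0.029 (without SUM159PT siNS replicate 1). The HBEGF difference between lines ranged from -0.37 to 0.12 (without SUM159PT siNS replicate 2). The cause was not tested.

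Same-numbered libraries did not deviate together, with correlations of their deviations from -0.171 to 0.0474 in MDA-MB-231 and from -0.0788 to 0.122 in SUM159PT. With the replicate block, ERBB3 in SUM159PT (-1.49, adjusted p = 0.0663) and the ERRFI1 difference between lines (-0.45, adjusted p = 0.075) were no longer called. Total counts as the scaling moved the median of all genes by -0.17 log2 units in SUM159PT and by -0.22 in the difference between the lines. Depth limits BTC, ERBB3 and TGFA in SUM159PT, with 2 to 69 counts per library.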
